A study of Mus musculus with 6 samples.

Results

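The proteasome subunit genes were taken as every row of the deposited count table whose symbol begins with Psm, then a letter from a to g, then a number, which gave 50 of 24062 symbols. By their roles they are 7 alpha and 7 constitutive beta subunits of the core particle, 5 immunoproteasome genes, 6 ATPases and 3 further subunits of the base of the regulatory particle, 8 subunits of its lid, 7 assembly chaperones, 3 other activators or inhibitors and 2 core subunits restricted to certain tissues. The remaining 2 rows match the pattern by name: Psmc3ip encodes a meiotic recombination factor and is no subunit, and Psme2b is a separate gene named after Psme2. A filter on low counts left 49 rows for testing, and Psmb11, the core subunit of thymic epithelium, was left out with 1 to 19 counts per library.

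Counts came from messenger RNA of Kit-positive bone marrow cells of C57BL/6 mice, sorted to enrich stem and progenitor cells of the blood; the series description adds that they were lineage-negative. The KO group is 3 mice that carry Mx1-Cre and floxed alleles of Ints11, and the WT group is 3 wild-type littermates, with 1 mouse per library. Cells of both groups were sorted 4 days after poly(I:C), a double-stranded RNA analog; the interferon it induces turns on the Mx1 promoter, which is active in many cell types besides blood cells. The sources used here give neither ages nor whether WT littermates carried Mx1-Cre. INTS11 is the endonuclease of Integrator, a complex that cleaves nascent RNA.

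The proteasome is the protease that degrades proteins tagged with ubiquitin. Its barrel-shaped core holds the catalytic sites inside rings of alpha and beta subunits, and its regulatory particle recognises, unfolds and feeds in the substrate. Interferon induces the catalytic subunits encoded by Psmb8, Psmb9 and Psmb10, which replace those encoded by Psmb5, Psmb6 and Psmb7, and the activator subunits encoded by Psme1 and Psme2, and the resulting immunoproteasome is abundant in blood cells and supplies peptides for MHC class I. When the proteasome is short of capacity, the transcription factor encoded by Nfe2l1 raises its subunit genes together.

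Libraries held 124074531 to 166860739 counts. Ints11, listed as Cpsf3l, had 64.3, 58.3 and 60.2 CPM in KO libraries, against 73.8, 92.3 and 78.9 CPM in WT libraries (log2 change -0.42 ± 0.099 SE, adjusted p = 0.0174, quasi-likelihood test of edgeR, Benjamini-Hochberg adjusted as are all adjusted p-values of single genes); the floxed exons are not given, so this level checks the labels only in part. Kit had 220.3, 238 and 226 CPM in KO libraries, against 221, 199 and 214 CPM in WT libraries, so the sorted marker was present in each library. All 11 genes of a mature neutrophil list were also present, although a lineage-negative sort normally removes such cells, with summed levels of 43737 to 57430 CPM in KO libraries, against 11423 to 36229 CPM in WT libraries, and 4 of the 11 were higher in KO libraries in the same test. By Xist and Y-linked counts, KO_339, KO_340 and WT_341 came from males and KO_345, WT_343 and WT_344 from females. CPM are counts scaled to a common library size with TMM factors, which set aside the most changed genes, and single-library values are given in the order KO_339, KO_340 and KO_345, then WT_341, WT_343 and WT_344.

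Proteasome genes were lower in Ints11 KO cells across the core, the regulatory particle and the immunoproteasome. Of the 49 tested rows 43 fell, 0 rose and 6 did not pass, at an adjusted p under 0.05 in the quasi-likelihood test of edgeR, with Benjamini-Hochberg adjustment over 15742 genes. All 49 estimates were negative, so 0 were higher at an unadjusted p under 0.05 as well, and DESeq2 and limma-voom also called 43 lower and 0 higher. Over all genes tested 35.9% were called, 19.9% lower and 16% higher; those shares depended on the scaling, with 12.3% lower and 22% higher under upper-quartile factors and 14.1% and 20% under library totals only. Most members have many counts, and of the 4617 genes with a mean of at least 50 CPM, 36.2% were called lower and 8.56% higher. At that level 37 of 38 members were called lower. Fitted changes were modest: the 31 constitutive genes of the core and regulatory particle had a median log2 change of -0.45, which is 26.7% below WT, against -0.17 for the 4617 genes of that level and 0.01 for all tested genes. For 44 of the 50 rows every KO library lay below every WT library, against 28.4% of tested genes (48% at 50 CPM or more), and for 0 rows every KO library lay above, against 25.6% (13.7%). The neutrophil list moved with genotype too, and with its level as a covariate 3 of the 49 rows passed as lower (Psmb9, Psme1 and Psmd8), against 5.01% of all genes; its part in the result was not tested. In bulk samples, fewer cells rich in these messengers and less of them per cell cannot be told apart.

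**Figure D1:**
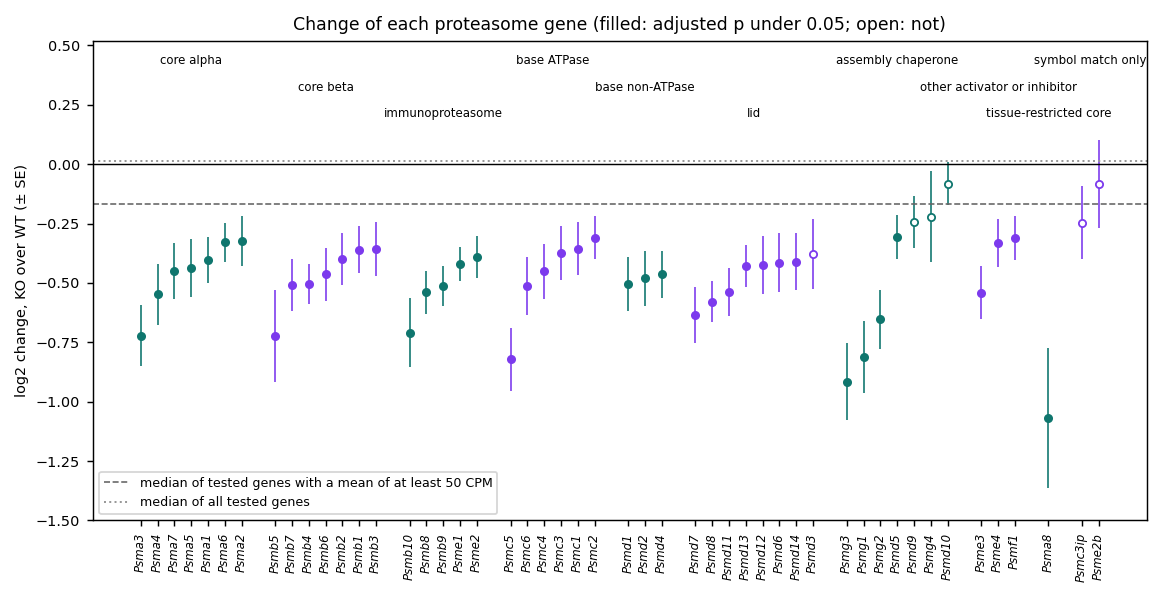
Log2 change of each of the 49 tested rows, KO over WT, with the standard error as a bar, grouped by role along the x axis. Filled points passed an adjusted p of 0.05 and open points did not; every point lies below 0, and the 6 open points are Psmd3, Psmd9, Psmd10, Psmg4, Psmc3ip and Psme2b.

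The alpha subunits form the outer rings of the core and gate its entrance. All 7 fell, with a median log2 change of -0.44 and a range of -0.72 to -0.32. Psma3 had 86.1, 85.8 and 83.1 CPM in KO libraries, against 118, 168 and 134 CPM in WT libraries. These KO values lie within 4 CPM of each other and well under the lowest WT library (log2 change -0.72 ± 0.13 SE, adjusted p = 0.00752). Psma4 had 91.98, 86.4 and 87.1 CPM in KO libraries, against 109.8, 156 and 123 CPM in WT libraries (log2 change -0.55 ± 0.13 SE, adjusted p = 0.0167). Psma1 had 143, 136 and 133 CPM in KO libraries, against 164, 206 and 174 CPM in WT libraries (log2 change -0.40 ± 0.097 SE, adjusted p = 0.0185). For both the groups did not overlap, and WT_343 was the highest library. Psma7 (log2 change -0.45), Psma5 (-0.44), Psma6 (-0.33) and Psma2 (-0.32) also fell. Psma3 passed with each library left out in turn (adjusted p from 0.000762 to 0.0328), while Psma4 was lost without KO_339 (0.0509) or KO_345 (0.0533) and Psma1 without KO_339 (0.0511), KO_340 (0.0553) or KO_345 (0.05999). The alpha genes called were 1 without KO_339 or KO_345, 2 without KO_340 and 4 without WT_344.

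The beta subunits line the inner chamber, and those encoded by Psmb5, Psmb6 and Psmb7 cut the substrate. All 7 constitutive beta genes fell, with a median log2 change of -0.46. Psmb5, for the chymotrypsin-like site, had 22.1, 30.1 and 22.8 CPM in KO libraries, against 37.5, 52.6 and 33.7 CPM in WT libraries (log2 change -0.72 ± 0.19 SE, adjusted p = 0.0262). The groups were apart, and KO_340 and WT_343 stood above the other libraries of their groups. Psmb6, for the caspase-like site, had 95.99, 88.4 and 91.4 CPM in KO libraries, against 108, 146 and 126 CPM in WT libraries (log2 change -0.46 ± 0.11 SE, adjusted p = 0.0189). Psmb7, for the trypsin-like site, had 109, 106 and 107 CPM in KO libraries, against 135, 179 and 144 CPM in WT libraries (log2 change -0.51 ± 0.11 SE, adjusted p = 0.0132), so the KO libraries were nearly equal. Psmb4, a structural subunit, had 129, 129 and 125 CPM in KO libraries, against 165, 199 and 179 CPM in WT libraries (log2 change -0.50 ± 0.083 SE, adjusted p = 0.00626). Psmb2 (log2 change -0.40), Psmb1 (-0.36) and Psmb3 (-0.36) also fell. Psmb4 and Psmb7 passed with any library left out. Psmb5 was lost without KO_339 (0.09897), KO_345 (0.0913) or WT_343 (0.0501), and Psmb6 without KO_339 (0.0519), KO_340 (0.0571), KO_345 (0.0561) or WT_344 (0.0556); the beta genes called were 2 without KO_339 or KO_345, 3 without KO_340 and 3 without WT_344. Pseudogene copies of the members were not examined here. The sources used here do not say how reads shared with such copies were counted.

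Promoters of members were searched for 3 motifs on both strands, in the 250 bases before the RefSeq start site: the core of the antioxidant response element that NFE2L1 binds (TGACNNNGC), the core of the interferon-stimulated response element (GAAA, any 2 bases, GAAA) and the gamma-activated site (TTCNNNGAA). No match of 1 motif overlapped that of another. RefSeq windows on GRCm38.p6 matched 42 of the 50 members, all but Psma8, Psmb1, Psmb2, Psmb7, Psmc3, Psmd3, Psmd7 and Psmg2. The first motif lay in 5 of the 42 (Psmb5, Psmb6, Psmc6, Psmd12 and Psmd9), against 11.5% of 27025 genes. The second lay in 3 (Psmb3, Psmd4 and Psmd9), against 3.46%, and the third in 2 (Psmb8 and Psmg1), against 8.13%. A match is a run of letters, not a measured site. The promoters of Psmb5 (chr14:54618023-54618245, reverse strand) and Psmb6 (chr11:70525107-70525356, forward strand) are printed 5′ to 3′. Both genes encode catalytic subunits and fell, and they were picked because their windows hold the first motif. Capitals mark the first motif, which lies 47 to 39 bases before the start in Psmb5 and 9 to 1 in Psmb6; bases inside the GENCODE gene model of Psmb5 are left out.
Psmb5: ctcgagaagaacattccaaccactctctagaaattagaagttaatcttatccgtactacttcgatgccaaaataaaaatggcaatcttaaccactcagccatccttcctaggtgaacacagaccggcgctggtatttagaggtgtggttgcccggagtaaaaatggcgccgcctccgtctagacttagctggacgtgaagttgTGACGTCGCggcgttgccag
Psmb6: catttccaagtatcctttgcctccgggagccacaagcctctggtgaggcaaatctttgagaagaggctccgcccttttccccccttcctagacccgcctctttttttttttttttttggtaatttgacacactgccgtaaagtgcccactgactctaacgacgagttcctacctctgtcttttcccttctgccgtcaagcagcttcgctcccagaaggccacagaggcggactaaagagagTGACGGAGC

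Immunoproteasome genes fell as well, although cells of both genotypes were collected after poly(I:C). All 5 passed, with a median log2 change of -0.51 (29.9% below WT). Psmb8, the counterpart of Psmb5 (chromosome 17, 34197721 to 34201454, forward strand on GRCm38, the assembly of mm10), had 172, 158 and 169.97 CPM in KO libraries, against 215, 262 and 249.9 CPM in WT libraries (log2 change -0.54 ± 0.091 SE, adjusted p = 0.00666). The highest KO library lay 43 CPM under the lowest WT library. Psmb9, the counterpart of Psmb6 (chromosome 17, 34181987 to 34187764, reverse strand), had 63.7, 55.4 and 65.7 CPM in KO libraries, against 89.9, 84.3 and 89.2 CPM in WT libraries (log2 change -0.51 ± 0.085 SE, adjusted p = 0.00645). Its WT libraries lay within 6 CPM of each other. Psmb10, the counterpart of Psmb7, had 48.9, 42.5 and 57.7 CPM in KO libraries, against 68.3, 91.9 and 83.4 CPM in WT libraries (log2 change -0.71 ± 0.15 SE, adjusted p = 0.0117), the largest estimated drop of the 5. The genes of the PA28 activator, which opens the core without ATP, lie within 10 kb of each other on chromosome 14. Psme1 had 145, 132 and 145 CPM in KO libraries, against 187, 194 and 183 CPM in WT libraries (log2 change -0.42 ± 0.0704 SE, adjusted p = 0.00652). Psme2 had 105, 95.1 and 106 CPM in KO libraries, against 132, 146 and 124 CPM in WT libraries (log2 change -0.39 ± 0.086 SE, adjusted p = 0.0145). KO_340 was the lowest library for all 5 genes. Psmb8, Psmb9, Psme1 and Psmb10 passed with any library left out, and Psme2 was lost without KO_339 (0.0535) or KO_340 (0.05696). Exons of Psmb9 overlap those of Tap1 on the other strand by 212 bases and exons of Psmb8 overlap the antisense gene Gm20496 by 498 bases; the sources used here do not give the strand setting of the counting.

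The balance between immunoproteasome and constitutive catalytic subunits was compared as the ratio of counts within a library, which no scaling affects. The Psmb8/Psmb5 ratio was 7.76, 5.25 and 7.46 in KO libraries, against 5.73, 4.98 and 7.41 in WT libraries. For Psmb9/Psmb6 it was 0.663, 0.627 and 0.719 in KO libraries, against 0.831, 0.579 and 0.706 in WT libraries. For Psmb10/Psmb7 it was 0.449, 0.401 and 0.537 in KO libraries, against 0.506, 0.514 and 0.578 in WT libraries. The groups overlapped for each ratio, and the log2 differences, KO minus WT, were 0.17, -0.06 and -0.21. Exact two-sided permutation tests over 20 assignments gave p = 0.50, 0.80 and 0.30 (0.75, 0.80 and 0.75 adjusted over the 3 ratios). With 3 libraries against 3, the smallest possible p is 0.10, so these tests could not pass and do not show that the balance was the same. Per kilobase of the principal coding transcript, Psmb8 was the more abundant of its pair, at 102 ± 4.44 CPM per kb against 27.8 ± 4.96 for Psmb5 in KO libraries, and 149 ± 15.1 against 45.9 ± 11.1 in WT libraries (SD, n = 3 each). Psmb9 had 45.5 CPM per kb and Psmb6 115 in KO libraries, and Psmb10 had 37.9 and Psmb7 92.6, so the constitutive gene was the higher of these pairs. On the principal transcript the mean Psmb10/Psmb7 ratio was 0.409 in KO and 0.471 in WT libraries. On the length of all annotated exons it came to 0.928 ± 0.14 in KO and 1.07 ± 0.08 in WT libraries (SD). In KO libraries the mean ratio thus stayed under 1 with either length, and in WT libraries the order of the pair depended on the length used.

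**Figure D2:**
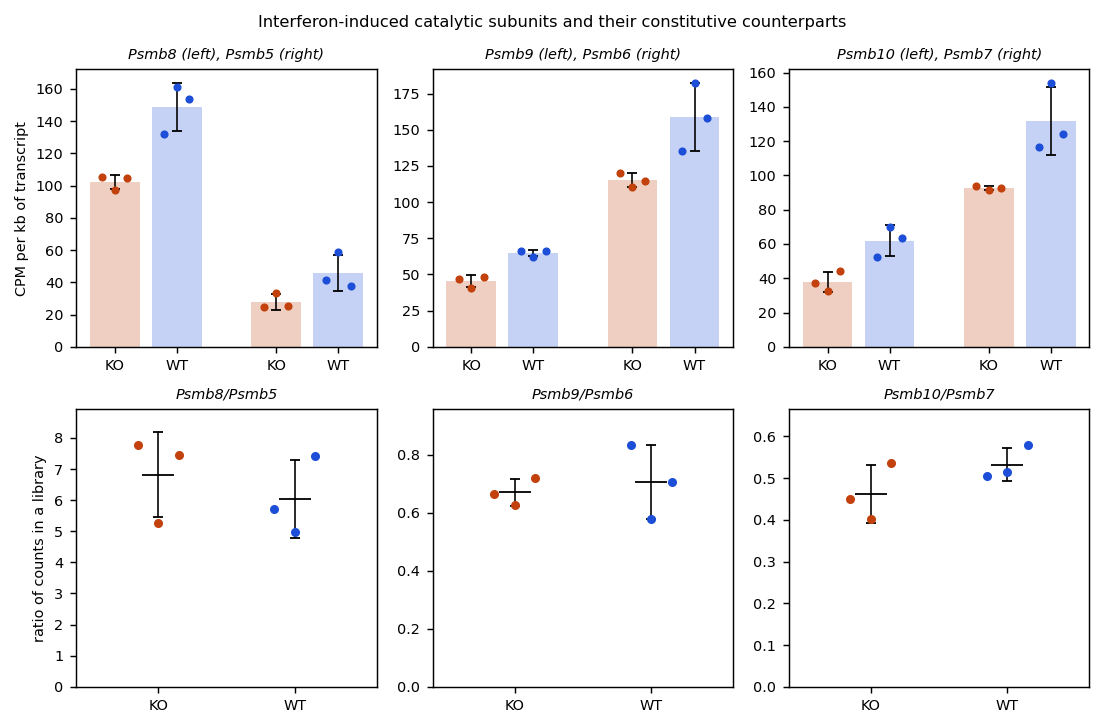
Upper row, CPM per kb of transcript for each interferon-induced catalytic subunit and its constitutive counterpart, KO left of WT, with bars for means, lines for SD and points for the 3 libraries of a group. Lower row, the ratio of counts within a library; both genes of each pair are lower in KO libraries, and the ratios of the groups overlap.

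The base of the regulatory particle holds the ATPases that unfold substrate, and all 6 ATPase genes fell (median log2 change -0.41). Psmc5 had 58.5, 56.5 and 66.8 CPM in KO libraries, against 87.9, 124 and 109.8 CPM in WT libraries (log2 change -0.82 ± 0.13 SE, adjusted p = 0.00606), the largest estimated drop of the 31 constitutive genes, and passed with any library left out (adjusted p from 0.000519 to 0.0312). Psmc6 had 115, 107 and 107 CPM in KO libraries, against 137, 188 and 146 CPM in WT libraries (log2 change -0.51 ± 0.12 SE, adjusted p = 0.0182). Psmc4 had 96.1, 96.1 and 88.6 CPM in KO libraries, against 108, 148 and 127 CPM in WT libraries (log2 change -0.45 ± 0.12 SE, adjusted p = 0.0232). Psmc3 (log2 change -0.37), Psmc1 (-0.36) and Psmc2 (-0.31) also fell, and Psmc1 came to -0.23 (adjusted p = 0.0521) without WT_343. Psmc5 was the sole ATPase gene called without any 1 of the KO libraries, and 2 were called without WT_344; Psmc6 was lost without KO_339 (0.0525), KO_340 (0.0534) or KO_345 (0.0583), and Psmc4 without KO_339 (0.0656), KO_340 (0.0535), KO_345 (0.0735) or WT_344 (0.0641). The non-ATPase subunits of the base fell in all 3 cases. Psmd2, the scaffold on which ubiquitin receptors dock, had 239, 247 and 250.1 CPM in KO libraries, against 286, 391 and 350.3 CPM in WT libraries (log2 change -0.48 ± 0.12 SE, adjusted p = 0.0193). Psmd1, its partner scaffold, had 164, 164 and 177 CPM in KO libraries, against 202, 272 and 243 CPM in WT libraries (log2 change -0.50 ± 0.11 SE, adjusted p = 0.0149). Psmd4, a ubiquitin receptor, had 93.5, 93.8 and 88.3 CPM in KO libraries, against 112, 144 and 124 CPM in WT libraries (log2 change -0.46 ± 0.10 SE, adjusted p = 0.0135). Psmd4 passed with any library left out, Psmd2 was lost without KO_339 (0.0689), KO_340 (0.0514), KO_345 (0.0519) or WT_344 (0.0614), and Psmd1 without KO_339 (0.0581) or WT_344 (0.0503).

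In the lid, which removes ubiquitin chains, 7 of 8 genes fell and the median log2 change was -0.43. Psmd8 had 91.1, 85.8 and 85.7 CPM in KO libraries, against 120.2, 145 and 128 CPM in WT libraries (log2 change -0.58 ± 0.086 SE, adjusted p = 0.00486), the smallest adjusted p of all members. Psmd7, the partner of the deubiquitinase subunit, had 60.02, 61.4 and 68.2 CPM in KO libraries, against 83.1, 112 and 99.02 CPM in WT libraries (log2 change -0.64 ± 0.12 SE, adjusted p = 0.00882). Psmd11 had 63.5, 67.2 and 77.1 CPM in KO libraries, against 91.1, 107 and 104 CPM in WT libraries (log2 change -0.54 ± 0.10 SE, adjusted p = 0.00897). In each of these 3 genes the KO and WT libraries were apart, and the calls held with any library left out. Psmd14, the deubiquitinase itself, had a log2 change of -0.41, Psmd13 of -0.43, Psmd12 of -0.43 and Psmd6 of -0.42, and all 4 passed. Psmd3 did not pass (log2 change -0.38 ± 0.15 SE, adjusted p = 0.0825): it had 89.99, 95.1 and 102 CPM in KO libraries, against 95.3, 142 and 136 CPM in WT libraries, and WT_341 lay among the KO libraries. It passed without WT_341 (log2 change -0.55, adjusted p = 0.00138). Lid genes called were 4 without any 1 of the KO libraries or without WT_344, and 6 without WT_343.

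**Figure D3:**
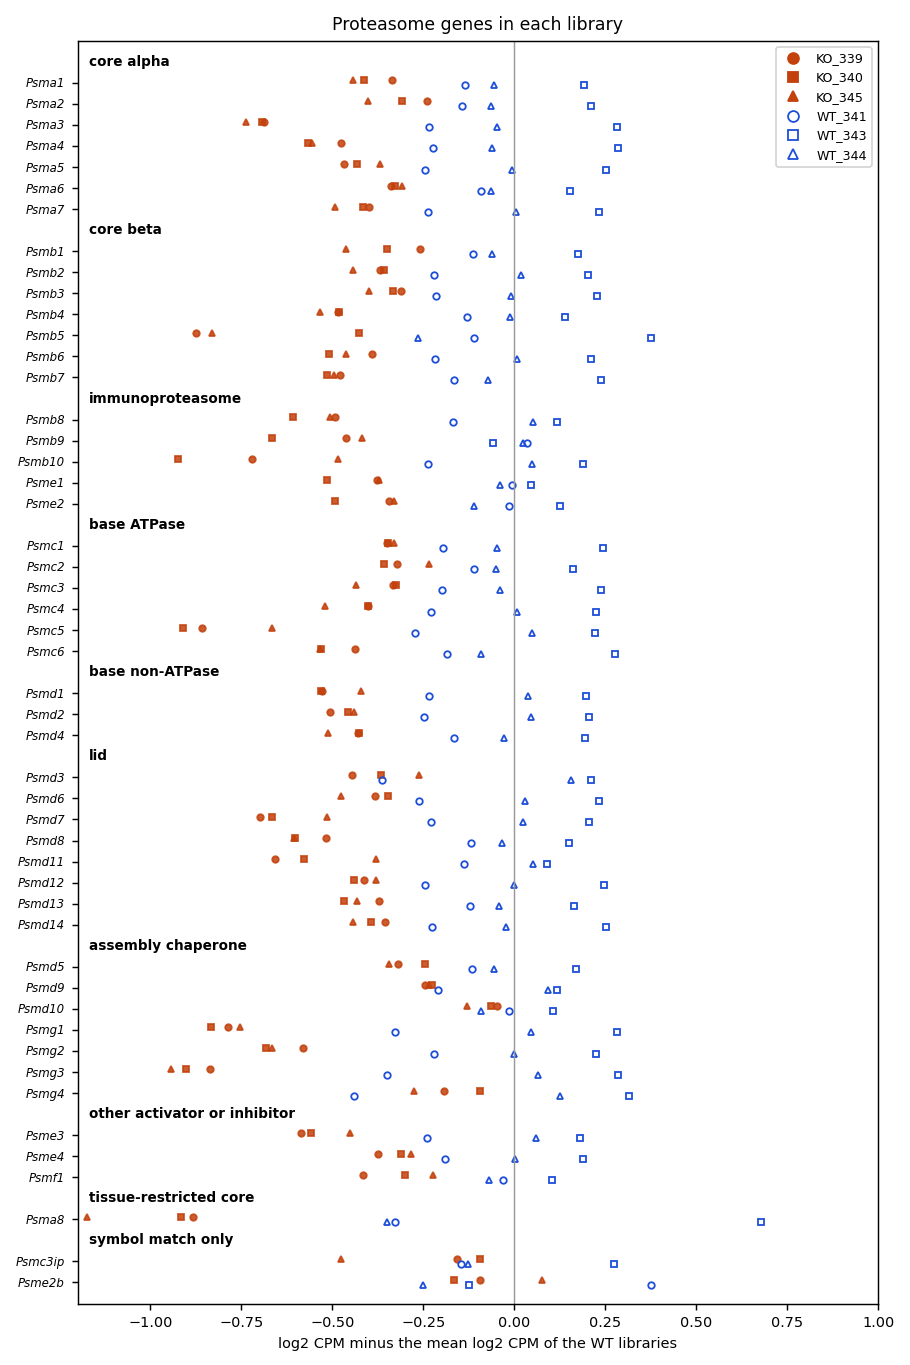
Log2 CPM of each of the 49 tested rows in each library, minus the mean log2 CPM of the WT libraries, with genes down the page by role. KO libraries (filled) sit above WT libraries (open) within a line; in most lines the KO points lie left of all WT points, WT_343 is the rightmost and WT_341 the leftmost of the WT points.

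The assembly chaperones build the particle and are not part of it, and here the members differed. Of the 4 core assembly chaperone genes, 3 fell. Psmg3 had 10.6, 10.2 and 9.87 CPM in KO libraries, against 14.9, 23.1 and 19.8 CPM in WT libraries (log2 change -0.92 ± 0.16 SE, adjusted p = 0.00765). Psmg1 had 21.1, 20.4 and 21.6 CPM in KO libraries, against 29.02, 44.3 and 37.6 CPM in WT libraries (log2 change -0.81 ± 0.15 SE, adjusted p = 0.00879). Psmg2 had 21.4, 19.9 and 20.2 CPM in KO libraries, against 27.4, 37.3 and 31.95 CPM in WT libraries (log2 change -0.65 ± 0.12 SE, adjusted p = 0.00931). For each of these 3 the groups were apart and the call held with any library left out. Psmg4, which pairs with Psmg3, had 10.9, 11.7 and 10.3 CPM in KO libraries, against 9.21, 15.5 and 13.6 CPM in WT libraries, and WT_341 was the lowest library of all (log2 change -0.22 ± 0.19 SE, adjusted p = 0.384). Of the chaperones of the base, Psmd5 fell (log2 change -0.31 ± 0.092 SE, adjusted p = 0.0363) and was lost without KO_339 (0.111), KO_340 (0.0687), KO_345 (0.106), WT_343 (0.05504) or WT_344 (0.0709). Psmd9 did not pass (log2 change -0.24 ± 0.11 SE, adjusted p = 0.114), with 23.9, 24.2 and 24.1 CPM in KO libraries, against 24.5, 30.8 and 30.3 CPM in WT libraries; its annotated exons overlap a long noncoding RNA gene on the other strand by 1849 bases. Psmd10, also known as gankyrin, had 23.2, 22.9 and 21.9 CPM in KO libraries, against 23.7, 25.8 and 22.5 CPM in WT libraries (log2 change -0.08 ± 0.091 SE, adjusted p = 0.496), and its estimate turned positive under library totals only (0.02) and under upper-quartile factors (0.05). Psmd9 and Psmg4 passed as lower without WT_341 and in no other alternative; Psmd10 passed in no alternative.

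Outside the core and its main cap, Psme3, the nuclear PA28 gamma activator, had 109, 111 and 119.7 CPM in KO libraries, against 138, 185 and 170.4 CPM in WT libraries (log2 change -0.54 ± 0.11 SE, adjusted p = 0.0121). Psme4, the PA200 activator, had 169.5, 177 and 180.3 CPM in KO libraries, against 193, 250.4 and 219.98 CPM in WT libraries (log2 change -0.33 ± 0.10 SE, adjusted p = 0.0397). Psmf1, a proteasome inhibitor also called PI31, had 27.3, 29.6 and 31.2 CPM in KO libraries, against 35.6, 39.1 and 34.7 CPM in WT libraries (log2 change -0.31 ± 0.093 SE, adjusted p = 0.0362). All 3 fell, with groups that did not overlap; none held with every library left out, as Psme3 was lost without KO_339 (0.05096), and Psme4 and Psmf1 without any of KO_339, KO_340, KO_345, WT_343 and WT_344. Psma8, the alpha subunit of the testis proteasome, was low, with 3.71, 3.63 and 3.03 CPM in KO libraries, against 5.45, 10.9 and 5.37 CPM in WT libraries (log2 change -1.07 ± 0.30 SE, adjusted p = 0.0283), and WT_343 held about as much as the other WT libraries together; it was lost without any 1 of the KO libraries, and its log2 change was -0.65 without WT_343. The rows matched by name only did not pass. Psmc3ip had 19.6, 20.6 and 15.8 CPM in KO libraries, against 19.8, 26.5 and 20.1 CPM in WT libraries (log2 change -0.25). Psme2b had 7.897, 7.52 and 8.88 CPM in KO libraries, against 10.9, 7.73 and 7.09 CPM in WT libraries (log2 change -0.08); the estimate of Psme2b turned positive without WT_341 (0.12), under library totals only (0.01) and under upper-quartile factors (0.05).

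Constitutive members shared nearly the same order among the WT libraries. Over the 31 genes the SD of log2 CPM between libraries had a median of 0.05 in KO and 0.22 in WT, and it was smaller in KO for 30 genes. Among WT libraries, WT_343 was the highest for all 31 genes and WT_341 the lowest for 30. Among KO libraries the order differed between genes, as Psma1 was highest in KO_339 and Psmd11 in KO_345. The shares of all tested genes with the same order or a smaller SD in KO were not counted. Summed over the 31, levels were 3377, 3340.4 and 3326 CPM in KO libraries, against 3983, 5278 and 4508 CPM in WT libraries. The 5 immunoproteasome genes summed to 534, 483 and 545 CPM in KO libraries, against 693, 778 and 729 CPM in WT libraries, and WT_343 was the highest for 4 of the 5. The mature neutrophil list had a mean log2 CPM of 10.75, 10.41 and 10.403 in KO libraries, against 10.13, 8.44 and 9.36 in WT libraries, so among WT libraries its order was the reverse of that of the constitutive proteasome genes. With that level as a covariate the median log2 change was -0.18 for the 31 constitutive and -0.40 for the 5 immunoproteasome genes; the list stood higher in every KO library than in any WT library, so level and genotype are partly confounded in that fit. Psmb9 changed by -0.59 in that fit, Psmd8 by -0.41 and Psme1 by -0.40. Megakaryocyte markers summed to 81.1 to 103 CPM in KO libraries, against 32.5 to 47.01 CPM in WT libraries (3 of 4 genes higher), and stem and progenitor markers to 428 to 467 CPM in KO libraries, against 369 to 408 CPM in WT libraries (3 of 5 higher). T and NK cell markers summed to 207 to 225 CPM in KO libraries, against 265 to 301 CPM in WT libraries, with 2 of 6 genes higher and 1 lower. Most of that sum was Nkg7, the gene called lower, with a mean of 197 CPM in KO and 276 CPM in WT libraries. Cd3e, Cd3g, Cd8a, Klrd1 and Gzma all had positive estimates. The mean log2 CPM of the list was higher in every KO library than in any WT library, so the lower sum reflects Nkg7 and not the list as a whole. The part of these lists in the proteasome levels was not tested.

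**Figure D4:**
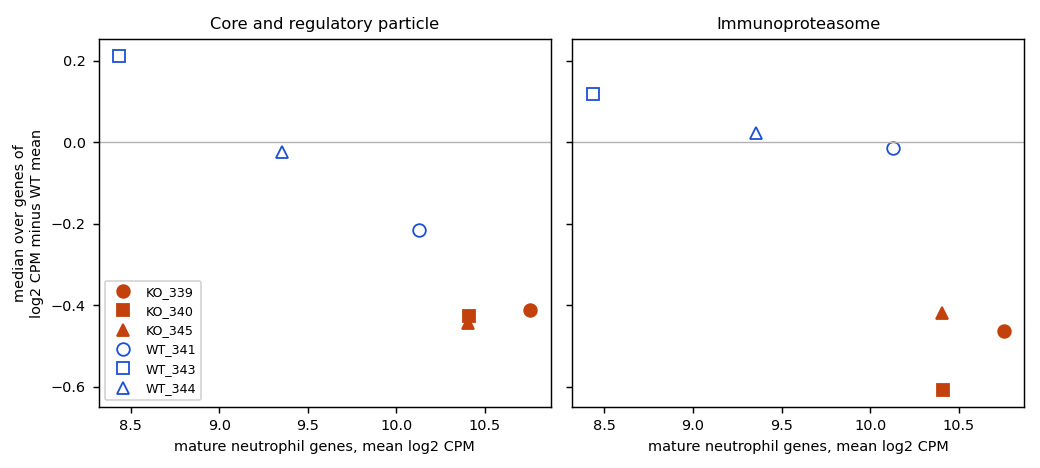
Each point is a library, with the mean log2 CPM of the 11 mature neutrophil genes on the x axis and the median over proteasome genes of log2 CPM minus the WT mean on the y axis, for the 31 constitutive genes (left) and the 5 immunoproteasome genes (right). KO libraries (filled) lie lowest and to the right. WT_341 has the highest neutrophil level of the WT libraries. It is the lowest of them in both panels, at -0.22 on the left and -0.015 on the right.

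Sex was unevenly spread over the genotypes, so members were also compared within each sex, with values and no test since each sex has 1 library in 1 of the genotypes. Between males (2 KO libraries, 1 WT library) the 31 constitutive genes had a median log2 difference of -0.23 and all 31 were lower in KO. Between females (1 KO library, 2 WT libraries) the median was -0.56 and all 31 were lower in KO. The 5 immunoproteasome genes differed by a median of -0.44 in males and -0.40 in females, lower in KO for all 5 in both. The share of all genes lower in KO within each sex was not counted. With sex as a covariate 30 of 49 rows passed as lower and 0 as higher, against 17.3% and 17.1% of all tested genes.

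Genes that work with the proteasome but lie outside the naming rule were read from a list of 38 tested genes, of which 15 fell and 2 rose (median log2 change -0.21), against 19.9% and 16% of all tested genes. At a mean of at least 50 CPM 13 of 29 fell and 1 rose (median log2 change -0.29), against 36.2% and 8.56% of genes of that level with a median of -0.17. The regulatory particle has 2 subunits without a Psm symbol, and neither passed. Adrm1, a ubiquitin receptor, had 41.6, 45.8 and 43.98 CPM in KO libraries, against 33.98, 48.3 and 50.6 CPM in WT libraries (log2 change -0.02, adjusted p = 0.9402). Shfm1, an older symbol of the small lid subunit gene Sem1, had 225, 209.7 and 196 CPM in KO libraries, against 205, 202 and 203 CPM in WT libraries (log2 change 0.05, adjusted p = 0.626). Neither passed in any of 13 alternatives, where their log2 changes ranged from -0.19 to 0.12 and from 0.02 to 0.18. Pomp, which encodes the chaperone of the last step of core assembly, had 65.99, 63.2 and 66.05 CPM in KO libraries, against 83.7, 104 and 90.96 CPM in WT libraries (log2 change -0.52 ± 0.093 SE, adjusted p = 0.00813). AI314180, an older symbol of Ecpas, whose product binds the assembled proteasome, had 214, 219 and 231 CPM in KO libraries, against 337, 409.99 and 362 CPM in WT libraries (log2 change -0.74 ± 0.091 SE, adjusted p = 0.00329). The bound deubiquitinase genes Usp14 (log2 change -0.37) and Uchl5 (-0.30) also fell, and passed in 5 and 6 of the 13 alternatives.

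Among the genes that deliver substrate, Nploc4, a cofactor of the segregase VCP, had 109, 107 and 116 CPM in KO libraries, against 133, 164 and 155 CPM in WT libraries (log2 change -0.45 ± 0.092 SE, adjusted p = 0.0118). Segregase genes fell in 2 of 3 cases, against 19.9% of all tested genes called lower. Rps27a, which encodes ubiquitin fused to a ribosomal protein, fell (log2 change -0.43 ± 0.097 SE, adjusted p = 0.01504), and Ubb did not pass except, as higher, with upper-quartile factors. Nfe2l1, the transcription factor of proteasome genes, had 89.3, 90.2 and 93.7 CPM in KO libraries, against 102, 137 and 113 CPM in WT libraries (log2 change -0.37 ± 0.11 SE, adjusted p = 0.0388). Its call held in 5 of 13 alternatives. It was lost without KO_339 (0.116), KO_340 (0.09597), KO_345 (0.0818), WT_343 (0.0508) or WT_344 (0.0801). Adjusting for sex also removed the call (0.0654), as did scaling to library totals (0.07975) or to upper quartiles (0.0999). Outside those 13, the fit with neutrophil level gave Nfe2l1 a log2 change of -0.05 (adjusted p = 0.694). Nfe2l2, its relative that answers to oxidative stress, was 1 of the 2 that rose, with 146, 141 and 128 CPM in KO libraries, against 121, 111 and 116 CPM in WT libraries (log2 change 0.25 ± 0.077 SE, adjusted p = 0.0396). The other, Zfand2a, whose product binds the proteasome under stress, rose by 0.21 (adjusted p = 0.0484); it and Nfe2l2 passed in 6 and 7 of 13 alternatives.

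Of 7 genes of MHC class I presentation downstream of the immunoproteasome, 1 fell and the other 6 did not pass, with a median log2 change of -0.07. Over all tested genes 19.9% were called lower, and 36.2% of those with a mean of at least 50 CPM, a level each of the 7 reached. The difference of the 7 from the immunoproteasome genes was not tested. Tap1, whose start lies beside that of Psmb9 on the other strand and which pumps peptides into the endoplasmic reticulum, had 244, 229 and 264 CPM in KO libraries, against 263, 217 and 242 CPM in WT libraries (log2 change 0.03 ± 0.096 SE, adjusted p = 0.822). Its groups overlapped, and its estimate turned negative without WT_343 (-0.04). Tap2, its partner, had a log2 change of 0.14 (adjusted p = 0.242; 0.0427 and higher in KO with upper-quartile factors), H2-K1 of -0.07 and B2m of -0.15, and none of these 3 passed. Erap1, which trims peptides, was the one that fell, with 141, 143 and 147 CPM in KO libraries, against 179, 234 and 197 CPM in WT libraries (log2 change -0.50 ± 0.10 SE, adjusted p = 0.0119). Irf8, a factor of monocyte and dendritic cell development, fell to 37.3, 38.6 and 45.1 CPM in KO libraries, against 102, 77.9 and 118 CPM in WT libraries (log2 change -1.30 ± 0.16 SE, adjusted p = 0.00327). Irf1 had 85.6, 77.6 and 90.9 CPM in KO libraries, against 85.8, 72.7 and 68.3 CPM in WT libraries (log2 change 0.17 ± 0.11 SE, adjusted p = 0.249). Irf1 passed as higher without WT_341 (log2 change 0.26, adjusted p = 0.0415), and Nlrc5 did not pass.

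The 43 called members kept a negative estimate in all 14 alternatives, while the number called varied. In the plot of calls by setting, the 31 constitutive and the 5 immunoproteasome genes kept a negative median in all 14 alternatives, and 0 members rose in any. Calls numbered 29 under library totals only and 28 under upper-quartile scaling, which set the median log2 change of all genes at 0.11 and 0.15, against 0.01 with TMM; the median of the 31 constitutive genes was then -0.34 and -0.31, against -0.45. Leaving out 1 library gave 16 calls without KO_339, 20 without KO_340, 19 without KO_345, 24 without WT_344, 34 without WT_343 and 46 without WT_341. In the same order, the share of all genes called lower was 7.95%, 10.4%, 10.3%, 11.5%, 15.1% and 26.6%. The calls of 16 members held in 13 alternatives, all but the neutrophil covariate: Psma3, Psmb4, Psmb7, Psmb8, Psmb9, Psmb10, Psmc5, Psmd4, Psmd7, Psmd8, Psmd11, Psmd13, Psme1, Psmg1, Psmg2 and Psmg3. Exons of some of these overlap another gene, among them Psmg3 with Gm26938 on the same strand (280 bases). On the other strand, Psmb7 overlaps Nek6 (405 bases) and Psmd13 overlaps Sirt3 (342 bases). Outside the 16, Psmd1 overlaps Gm21972 on the same strand (301 bases).

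**Figure D5:**
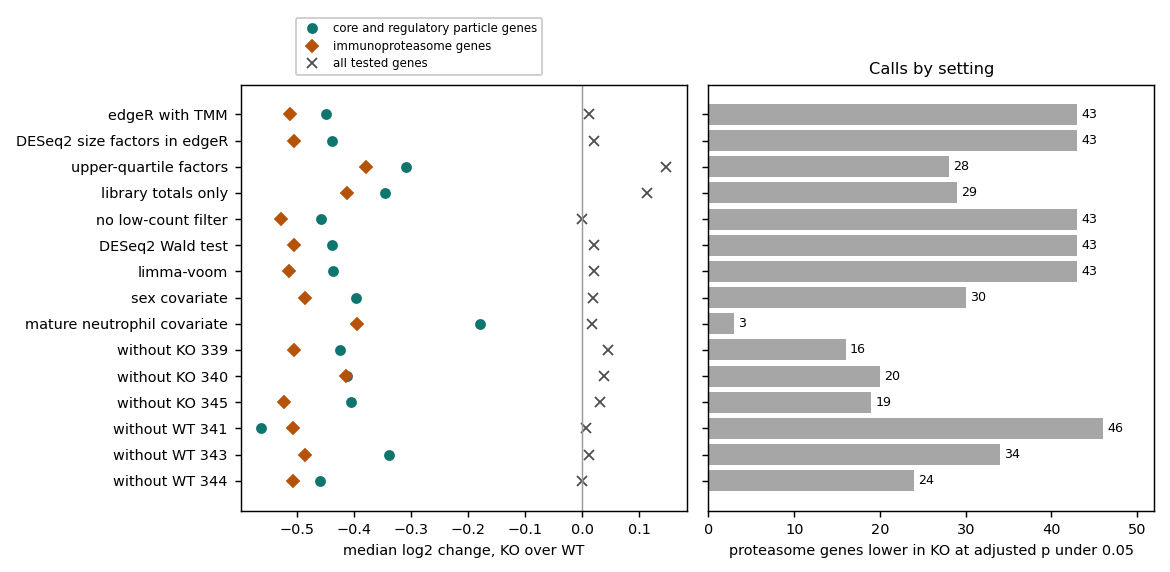
Left, the median log2 change, KO over WT, of the 31 constitutive genes (circles), the 5 immunoproteasome genes (diamonds) and all tested genes (crosses) under the fit used in the text (top) and 14 alternatives. Right, the number of proteasome genes called lower in KO under each, from 3 with the mature neutrophil covariate to 46 without WT_341.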

How the data were processed

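Messenger RNA of Kit-positive bone marrow cells was sequenced from 3 KO and 3 WT mice. The authors deposited raw counts per gene symbol for each library; per the submitters' processing notes, FastQC, Trimmomatic, STAR and HTSeq were used with mm10, without versions, strand setting or treatment of multi-mapped reads. Here the deposited counts were tested with edgeR 4.0.16 (R 4.3.3) by its quasi-likelihood test with TMM factors, after filterByExpr (minimum count 10, minimum total 15), over 15742 genes, with Benjamini-Hochberg adjustment and a threshold of 0.05. Standard errors were taken as the log2 change over the root of F. Libraries are separate mice, so p-values measure the spread between mice. Alternatives were DESeq2 size factors, upper-quartile factors, library totals only, no low-count filter, DESeq2 1.42.0, limma-voom 3.58.1, covariates for sex and mature neutrophil level, and leaving out each library. CPM per kb used the APPRIS principal transcript of GENCODE M21. Genes given in full were the 5 immunoproteasome genes, their 3 constitutive counterparts, and up to 3 members of each other class and 6 partners with the smallest adjusted p, with Nfe2l1, Pomp, Tap1 and Irf1; Psmd3, Psmd9, Psmd10, Psmg4, Adrm1, Shfm1, Nfe2l2, Zfand2a, Rps27a and Tap2 were added after their values were seen. The members and lists were chosen with earlier results of these data known. Of 43 partner names, 38 were tested; the others are aliases, or Paaf1, which is not analysed here, and some partner genes are not reported here.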

Additional observations from a re-analysis of the deposited data

How the results depend on the processing

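No paired analysis was made, because the sample labels do not say which KO and WT mice came from the same litter. The 43 proteasome genes called lower became 28 with upper-quartile factors, 3 with the mature neutrophil covariate and 16 to 46 with 1 library left out. For the 31 constitutive genes, 30 calls became 18 with upper-quartile factors, 19 with library totals only, 1 with the neutrophil covariate and 9 to 31 with 1 library left out. The 5 immunoproteasome calls became 2 with the neutrophil covariate and 4 to 5 with 1 library left out. All genes changed numbered 5659, against 1255 with the neutrophil covariate and 2302 to 7879 with 1 library left out. Partner genes called lower went to 9 with upper-quartile factors, 9 with library totals only, 3 with the neutrophil covariate and 6 to 19 with 1 library left out. Partner genes called higher went to 4 with upper-quartile factors, 0 with no low-count filter, with the sex covariate and with the neutrophil covariate, and 0 to 4 with 1 library left out. The log2 differences of the exchange ratios ranged, with 1 library left out, from 0.05 to 0.35 for Psmb8/Psmb5, from -0.20 to 0.065 for Psmb9/Psmb6 (0.065 without WT_341, a change of sign) and from -0.33 to -0.11 for Psmb10/Psmb7. Among the members and the partners given in full, the estimates that changed sign had not passed: with the neutrophil covariate Psmd3 (0.041), Psmg4 (0.31), Psmc3ip (0.037) and Tap1 (-0.15); with upper-quartile factors Psmd10 (0.054) and Psme2b (0.045); with library totals only Psmd10 (0.018) and Psme2b (0.013); with 1 library left out Psme2b (-0.21 to 0.12) and Tap1 (-0.045 to 0.10). Other partner estimates near 0 changed sign too, among them Adrm1 (-0.19 to 0.12) and H2-K1 (-0.09 to 0.06). The cause of these shifts was not tested. With DESeq2 size factors, DESeq2, limma-voom and no low-count filter, 0 of 58 genes changed direction or side of the threshold. These 58 are the 49 tested members, the 6 partners with the smallest adjusted p, and Nfe2l1, Pomp, Tap1 and Irf1, each counted once. Of the partners added later, Nfe2l2 and Zfand2a lost their calls with no low-count filter. Depth did not limit the members but Psmb11, with 1 to 19 counts; 3 mice per genotype limit the precision of each change, and the sources used here do not give the strand setting or the handling of multi-mapped reads.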
